A study of Mus musculus with 4 samples.

Results

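The 10 SR splicing factor genes described here are Srsf1, Srsf2, Srsf3, Srsf4, Srsf5, Srsf6, Srsf7, Srsf9, Srsf10 and Srsf11. They were taken by name from a table of 47885 rows, all 10 were found, and all 10 passed the filter on low counts together with 15563 genes in all. Their RNA was measured in 4 whole mouse embryos of the C57BL/6 strain at embryonic day 5.5, each sequenced alone after Smart-Seq v4 amplification of polyadenylated RNA. KO denotes 2 embryos labelled Mettl14-/-, and WT denotes 2 embryos labelled Mettl14+/+. The labels state that genotypes were read by qPCR for Mettl14 on the amplified cDNA and that expression of the gene defined the controls, so heterozygous controls cannot be told apart from homozygous ones. The sources used here name neither the deleted segment nor the breeding scheme.

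SR proteins are splicing factors that carry RNA recognition motifs and a tail rich in arginine-serine dipeptides. They bind exonic enhancers and help the spliceosome to find splice sites, and some of them also escort spliced mRNA to the cytoplasm. Many SR genes restrain themselves through a so-called poison exon, a cassette that brings a premature stop and sends the transcript to nonsense-mediated decay. In human cells the nuclear m6A reader YTHDC1 binds SRSF3 and SRSF10, with opposite effects on exon inclusion, which links the family to the methyl mark that METTL14 helps to write.

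Libraries held between 16108062 and 28698541 counts, and 1 count equalled between 0.0358 and 0.0589 CPM, the library-size-scaled count (TMM, a trimmed-mean normalisation). Mettl14 had 4.62 and 8.03 CPM in KO replicates 1 and 2, against 33.9 and 31.6 CPM in WT replicates 1 and 2, a check that is not independent of how the embryos were classed. KO replicate 2 stood farthest from WT replicate 1 (Pearson correlation of log2 CPM across genes 0.879), whereas KO replicate 1 correlated with WT replicates 1 and 2 at 0.93 and 0.925 and with KO replicate 2 at 0.923. Tissue markers also differed between the groups, though not for every tissue. All 6 visceral endoderm markers were detected, with a summed level of 242 to 312 CPM in KO and 628 to 1686 CPM in WT. Apoa1 held much of that sum (172 and 194 CPM in KO, 440 and 1107 CPM in WT). The KO embryos were the lower pair for 4 of the 6. Afp and Sox17 overlapped between the groups, Sox17 at a log2 fold change of 0.084. Of 5 ectoplacental cone and giant cell markers Prl2c2 was at 0 in every embryo, and the sum was 624 to 1208 CPM in KO and 176 to 291 CPM in WT. Hand1 held much of that sum (518 and 468 CPM in KO, 150 and 262 CPM in WT). Prl3d1 (322 and 46.5 CPM in KO, 0 and 0.694 CPM in WT) and Plac1 (287 and 75.8 CPM in KO, 6.77 and 2.13 CPM in WT) were low in WT. Both also differed widely between the KO embryos. All 5 epiblast markers were detected, at a sum of 965 to 1713 CPM in KO and 928 to 1121 CPM in WT. All 5 extraembryonic ectoderm markers were detected too, at 565 to 749 CPM in KO and 508 to 574 CPM in WT. The epiblast and the extraembryonic ectoderm sums overlapped between the groups, and Utf1 held most of the epiblast sum. Gene by gene, the KO embryos were the higher pair for 2 of the 5 epiblast markers. These were Nanog (5.05 and 8.24 CPM in KO, 2.30 and 4.64 CPM in WT) and Sox2 (45.6 and 40.1 CPM in KO, 31.5 and 17.7 CPM in WT). The same held for 1 of the 5 extraembryonic ectoderm markers, Bmp4 (204 and 235 CPM in KO, 148 and 139 CPM in WT). The other markers of these 2 tissues overlapped. Over all genes tested, KO was the higher pair for 19.4%. Markers of maternal decidua summed to at most 1.23 CPM in KO and 8.17 CPM in WT, where Hoxa11 was at 0 throughout and Hoxa10 at 0 in KO. Among blood markers, summing to at most 2.26 CPM in KO and 1.49 CPM in WT, Hbb-bt was at 0 throughout. The part of tissue proportions in the SR values was not tested, and in whole embryos fewer cells of a type and less RNA per cell cannot be told apart.

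The annotation gives the 10 genes 85 transcripts in GENCODE M21 (mm10), of which 29 are protein-coding, 15 are classed as nonsense-mediated decay targets and 26 as retaining an intron. A decay transcript is listed for 9 of the genes, Srsf10 being the exception. In Srsf3, Srsf6, Srsf7 and Srsf11 a decay transcript has an internal exon that is absent from the principal coding transcript. The reading frame ends in that exon. Srsf3 has 2 decay transcripts and Srsf11 has 3, and for each gene the exon shown is from 1 of them. The coding stretch of each exon is shown from its first base to the premature stop, which is in capitals, because a count per gene cannot tell reads of these exons from reads of the productive mRNA. The exons lie at chr17:29039454-29039909 on the plus strand (Srsf3, 456 bases), chr2:162932815-162933082 on the plus strand (Srsf6, 268 bases), chr17:80204622-80205081 on the minus strand (Srsf7, 460 bases) and chr3:158024123-158024231 on the minus strand (Srsf11, 109 bases).
Srsf3: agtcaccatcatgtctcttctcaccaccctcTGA
Srsf6: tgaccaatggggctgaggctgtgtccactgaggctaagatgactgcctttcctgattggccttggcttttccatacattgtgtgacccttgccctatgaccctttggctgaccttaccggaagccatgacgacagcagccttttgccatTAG
Srsf7: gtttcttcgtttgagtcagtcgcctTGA
Srsf11: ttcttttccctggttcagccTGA
The stop follows within 34 bases in Srsf3, 28 in Srsf7 and 23 in Srsf11, but after 152 bases in Srsf6. The annotation used for counting is not known, so whether reads of these exons entered the gene counts is not known either, and no value that follows separates the forms.

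In KO against WT, none of the 10 SR genes passed the threshold (edgeR quasi-likelihood test, Benjamini-Hochberg adjusted p under 0.05 over all genes), at members' adjusted p values from 0.816 to 0.998. That was also the case for all genes, with 0% called higher and 0% called lower. Mettl14 itself, at a log2 fold change of -2.37, did not pass by edgeR (adjusted p = 0.274) but did by DESeq2 (adjusted p = 0.000418). A gene that did not pass by edgeR is therefore not shown to be at equal levels. An unadjusted edgeR p under 0.05 was reached by 0 members and by 7.82% of all genes, and DESeq2 called 0 members and 1.54% of all genes. The log2 fold change was below 0 for 9 members and above 0 for Srsf4 alone, with a median of -0.25, against -0.035 over all genes tested, of which 47.7% were above 0. With scaling by library totals 2 members (Srsf4 and Srsf6) were above 0. The members' median absolute log2 fold change was 0.32, against 0.43 over all genes. Every member's 95% interval included 0, and 5 of the 10 intervals lay within -1 to 1 log2 units, so a larger difference is outside the interval for those 5 only.

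**Figure D1:**
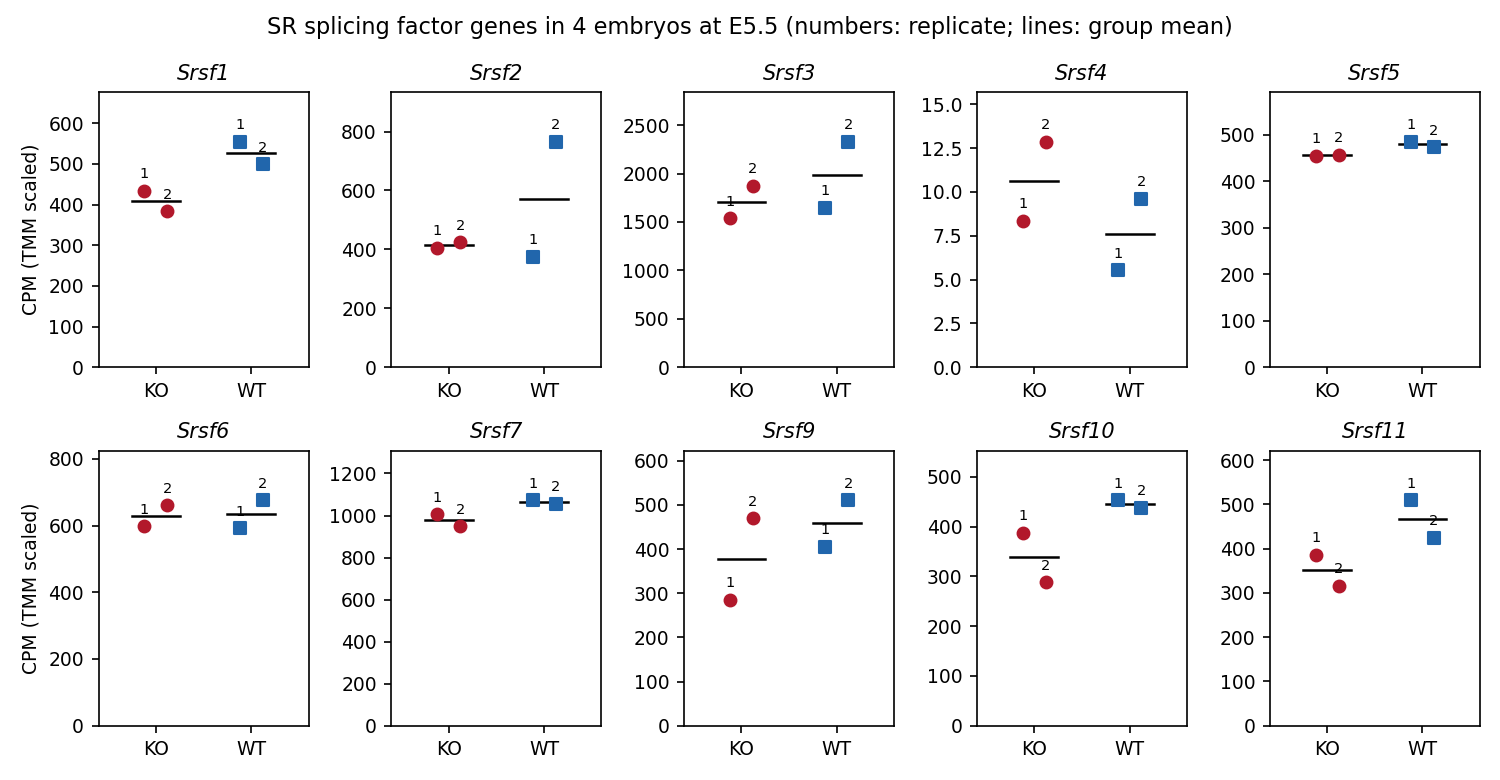
CPM (TMM scaled, linear axes from 0) of each SR gene in KO embryos (red circles) and WT embryos (blue squares), with the replicate number beside each point and a line at each group's mean. Srsf5, Srsf6 and Srsf7 are nearly level across the 4 embryos, while Srsf2 has 1 high WT embryo (766 CPM) and Srsf9 has 1 low KO embryo (285 CPM).

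Srsf1, Srsf3 and Srsf7 encode shuttling proteins that also act as adaptors for mRNA export. Srsf1, a general enhancer-binding factor, had 434 and 384 CPM in KO replicates 1 and 2, against 555 and 499 CPM in WT replicates 1 and 2. Both KO embryos were below both WT embryos, and the difference was -0.37 (95% interval -0.98 to 0.25, SE 0.27, n = 2 per group, edgeR adjusted p = 0.839). Srsf3, the smallest classical member, had the highest raw level of the family with 1536 and 1876 CPM in KO replicates 1 and 2, against 1645 and 2329 CPM in WT replicates 1 and 2. The WT embryos enclosed the higher KO embryo, and the log2 fold change was -0.22 (interval -0.85 to 0.41). Srsf7, which has a zinc knuckle beside its RNA recognition motif, had 1006 and 948 CPM in KO replicates 1 and 2, against 1073 and 1055 CPM in WT replicates 1 and 2. The KO embryos were again the lower pair, by a log2 fold change of -0.12 (interval -0.69 to 0.44).

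Srsf2 encodes SC35, a member that stays in the nucleus and marks nuclear speckles. It had 406 and 424 CPM in KO replicates 1 and 2, against 376 and 766 CPM in WT replicates 1 and 2. The WT embryos stood on either side of the KO pair and differed from each other by 1.03 log2 units, more than the log2 fold change between groups of -0.46 (interval -1.29 to 0.37, SE 0.36). Without WT replicate 2 the Srsf2 value was 0.15. Exons of Srsf2 share 288 bases with Mfsd11 and 460 bases with Mettl23 on the opposite strand, and those neighbours together held 738 and 844 counts in KO and 820 and 915 counts in WT, between 6.38% and 12.9% of the Srsf2 count of the same embryo.

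Srsf4, Srsf5 and Srsf6 form a subfamily whose proteins carry a pair of RNA recognition motifs. Srsf5 had 455 and 457 CPM in KO replicates 1 and 2, against 486 and 474 CPM in WT replicates 1 and 2, a log2 fold change of -0.074 (interval -0.67 to 0.52). The whole range of Srsf5 over the 4 embryos was 0.095 log2 units. Srsf6 had 598 and 661 CPM in KO replicates 1 and 2, against 592 and 676 CPM in WT replicates 1 and 2, so that the KO embryos lay inside the WT range, at -0.012 (interval -0.61 to 0.59), or 0.016 with library totals. Srsf4 was the low member of the subfamily, with 177 and 359 counts (8.35 and 12.9 CPM) in KO replicates 1 and 2, against 94 and 180 counts (5.53 and 9.61 CPM) in WT replicates 1 and 2. The groups overlapped, and the log2 fold change of 0.49 had the widest interval of the family (-0.70 to 1.67, SE 0.52). It ran from 0.15 without KO replicate 2 to 0.95 without WT replicate 2. Gm12992 on the opposite strand shares 1532 exonic bases with Srsf4, and it held 3 and 6 counts in KO and 8 and 5 counts in WT.

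Srsf9, Srsf10 and Srsf11 complete the set. Srsf9 encodes a relative of the Srsf1 protein with a short arginine-serine tail. It had 285 and 470 CPM in KO replicates 1 and 2, against 406 and 511 CPM in WT replicates 1 and 2, and only KO replicate 1 was below both WT embryos (log2 fold change -0.28, interval -1.03 to 0.47). Srsf10, whose product becomes a splicing repressor when dephosphorylated, had 388 and 288 CPM in KO replicates 1 and 2, against 453 and 437 CPM in WT replicates 1 and 2. Srsf11, an SR-related member, had 386 and 317 CPM in KO replicates 1 and 2, against 510 and 425 CPM in WT replicates 1 and 2. Both KO embryos were below both WT embryos for both genes, at log2 fold changes of -0.40 (SE 0.29) for Srsf10 and -0.41 (SE 0.28) for Srsf11, with edgeR adjusted p = 0.831 and 0.816.

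Groups that did not overlap were thus seen for 5 members, all with KO lower (Srsf1, Srsf5, Srsf7, Srsf10 and Srsf11), and for 0 members with KO higher. Over all genes tested the KO embryos were the lower pair for 18.8% and the higher pair for 19.4%. The count of 5 depended on the scaling. With CPM from library totals only Srsf1 and Srsf10 did not overlap (2 members, against 17.2% of all genes). Srsf10 was separated there by a narrow gap, with 406 and 280 CPM in KO replicates 1 and 2, against 478 and 407 CPM in WT replicates 1 and 2. In that scaling Srsf5, Srsf7 and Srsf11 had at least 1 KO embryo above a WT embryo. With RLE scaling, which uses the median ratio to a mean library, the same 5 genes did not overlap.

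**Figure D2:**
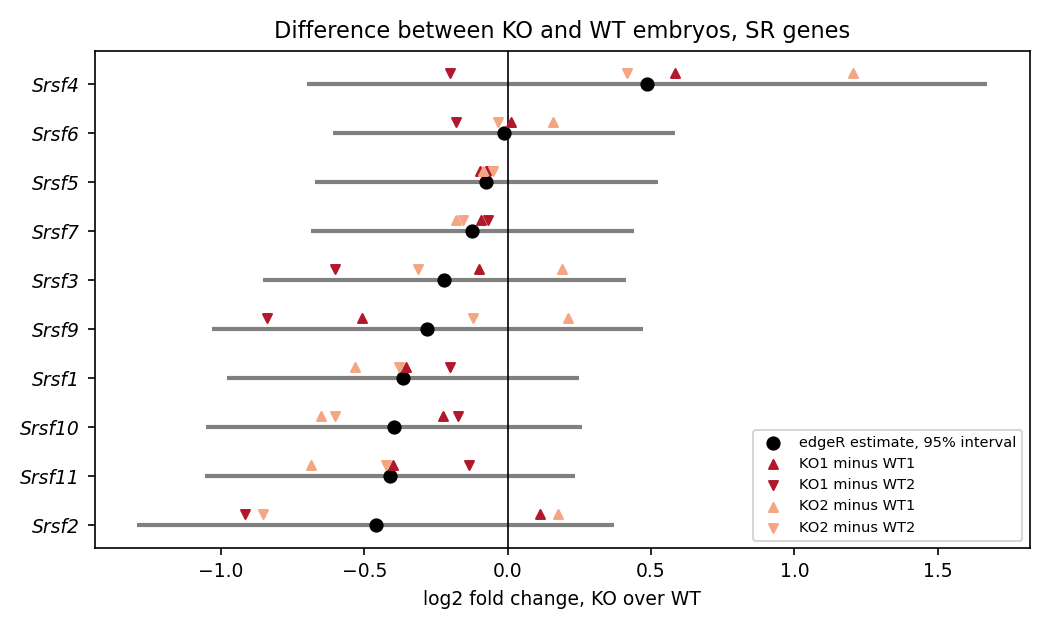
Log2 fold change of KO over WT for each SR gene (black points, edgeR) with its 95% interval (grey bars), and the 4 differences between single embryos of log2 CPM as triangles. All 10 intervals cross 0, and the differences from WT replicate 2 (pointing down) are below 0 except for Srsf4 in KO replicate 2.

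Taken embryo by embryo, KO replicate 1 had lower values than WT replicate 2 for 10 of 10 members and lower values than WT replicate 1 for 7 of 10. KO replicate 2 had lower values than WT replicate 2 for 9 of 10 members, but lower values than WT replicate 1 for only 5 of 10. The median differences were -0.097 and -0.19 for KO replicate 1 and 0.035 and -0.23 for KO replicate 2, each from WT replicates 1 and 2 in that order. Over all genes tested the share of lower values in those comparisons was 50% and 47.1% for KO replicate 1 and 51.9% and 54.5% for KO replicate 2. The 10 genes together made up 5503 and 5837 CPM in KO replicates 1 and 2, against 6101 and 7182 CPM in WT replicates 1 and 2. Both KO sums were below both WT sums, also as a share of raw counts (0.576% and 0.568% in KO, 0.643% and 0.669% in WT). Srsf3 alone carries much of the sum, and its own groups overlapped. With all 4 embryos the members' median log2 fold change was -0.25. Without WT replicate 2 it was -0.088, and without KO replicate 1 it was -0.044. Leaving out either library thus moved the median by more than the spread of the members' median level between replicates (SD 0.036 log2 units).

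Levels can be ranked across genes only per length, here as CPM per kilobase of the union of annotated exons, which includes retained introns and alternative ends. The order of group means was the same in both groups: Srsf7, Srsf9, Srsf3, Srsf2, Srsf6, Srsf5, Srsf1, Srsf10, Srsf11 and Srsf4. Srsf7 had 275 ± 11.6 CPM per kilobase in KO and 300 ± 3.66 CPM per kilobase in WT (SD, n = 2 each). The ranges of Srsf7, Srsf9 and Srsf3 overlapped between neighbours in both groups, so their order is not resolved. Srsf2 overlapped Srsf6 in both groups. Srsf10 overlapped Srsf11 in KO but not in WT, and Srsf3 overlapped Srsf2 in WT but not in KO. Srsf5 and Srsf1 were each separate from their neighbours below in both groups, at 114 ± 0.429 and 71.6 ± 6.22 CPM per kilobase in KO and 120 ± 2.06 and 92.3 ± 6.97 CPM per kilobase in WT. Srsf4 stood far apart at 2.98 ± 0.897 CPM per kilobase in KO and 2.13 ± 0.809 CPM per kilobase in WT, or 0.233% and 0.141% of the family's summed level per length. The upper ranks depended on the length used. Per kilobase of the principal coding transcript, a length tried after seeing the data, Srsf3 was above Srsf7 in every embryo, with group means of 652 in KO and 759 in WT for Srsf3 and 427 in KO and 465 in WT for Srsf7. Srsf4 remained the lowest, at 4.70 CPM per kilobase of transcript in KO and 3.35 in WT. Of its 3561 exonic bases 1532 are shared with Gm12992 on the opposite strand. Whether reads of shared bases were left out of the Srsf4 count is not known, and their part in its low level was not tested.

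**Figure D3:**
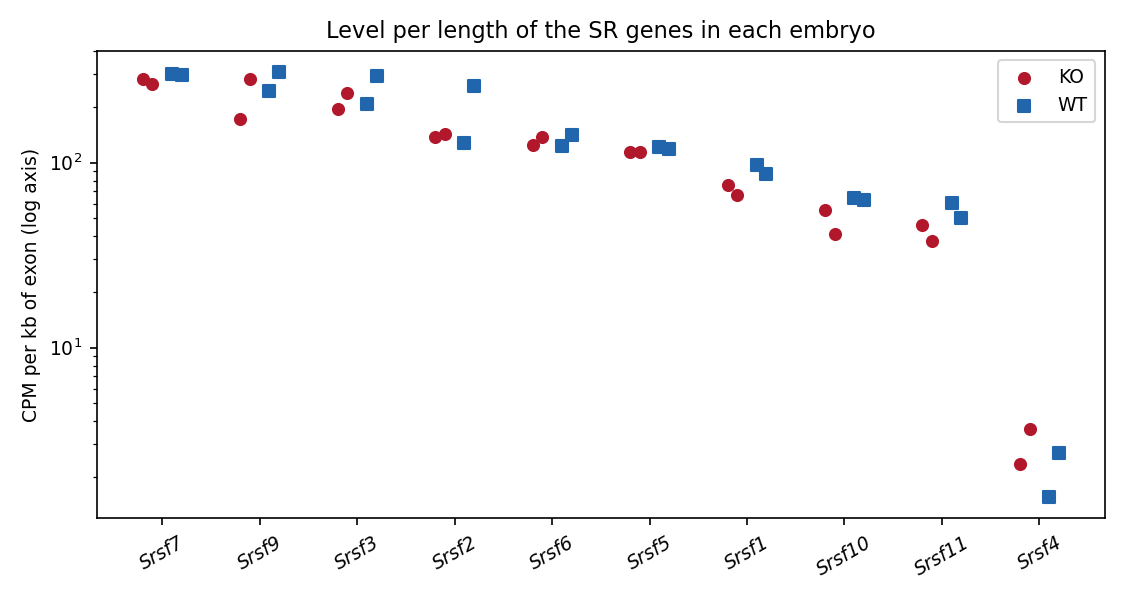
CPM per kilobase of annotated exon (log axis) of each SR gene in the KO embryos (red circles) and the WT embryos (blue squares), ordered by the WT mean. 9 genes lie between 37.5 and 309 CPM per kilobase in every embryo, and Srsf4 lies between 1.55 and 3.61.

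Start-site sequences are given for Srsf7, one of the genes at the upper end of the levels per length, and for Srsf4, the lowest gene by either length. The windows are from RefSeq (GRCm38.p6), run from 250 bases before to 50 bases after the start, and lie at chr17:80207256-80207555 on the minus strand and chr4:131873387-131873686 on the plus strand. Capitals mark GGGCGG (GC box) and CGGAAG (core of ETS factor sites) on either strand.
Srsf7: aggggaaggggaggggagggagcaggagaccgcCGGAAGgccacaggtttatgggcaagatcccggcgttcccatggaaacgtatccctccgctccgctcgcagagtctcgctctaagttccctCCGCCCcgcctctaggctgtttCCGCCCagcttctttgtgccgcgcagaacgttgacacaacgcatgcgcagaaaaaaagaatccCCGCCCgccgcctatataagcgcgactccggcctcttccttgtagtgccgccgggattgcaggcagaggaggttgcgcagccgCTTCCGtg
Srsf4: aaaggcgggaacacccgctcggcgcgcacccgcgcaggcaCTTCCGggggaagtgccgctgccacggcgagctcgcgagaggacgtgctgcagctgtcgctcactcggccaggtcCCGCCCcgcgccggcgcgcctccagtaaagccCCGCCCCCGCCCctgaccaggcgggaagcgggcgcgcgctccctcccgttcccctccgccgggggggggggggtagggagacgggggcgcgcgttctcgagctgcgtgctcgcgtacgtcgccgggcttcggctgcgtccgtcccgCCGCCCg
Both windows are rich in G and C (62.7% and 77.7%), and both hold GGGCGG (3 times in Srsf7, 4 times in Srsf4) and CGGAAG (2 times in Srsf7, 1 time in Srsf4). RefSeq lists 13 start windows for the 10 genes. GGGCGG was present in 12 of these 13 and in 35.7% of all 32851 windows, and CGGAAG in 7 of 13 and in 16.9% of all. TATAAA was found in 2 of the 13 (13.6% of all), CCAAT in 4 (37.4% of all) and CACGTG in 0 (7.15% of all). The Srsf3 window was the one without GGGCGG, and it held TATAAA and CCAAT. Motifs were counted on both strands, windows of 1 gene can overlap each other, and a match is a stretch of letters and not evidence of binding.

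METTL3 and METTL14 methylate adenosines in a short context of which GGACT is the commonest DNA spelling. In the principal coding transcript of each gene GGACT occurred 0 times in Srsf5, 1 time in Srsf2, Srsf3, Srsf4, Srsf6, Srsf10 and Srsf11, 2 times in Srsf7, 3 times in Srsf9 and 5 times in Srsf1. Per kilobase only Srsf9 (2.58) was above the median of 1.06 over 13224 tested genes with a coding transcript, and the median of the 10 members was 0.413. Of all those transcripts 90.8% had at least 1 GGACT. The sites of Srsf9, all in coding sequence on the plus strand of chromosome 5, are shown with the motif in capitals because this gene has the densest set. The first lies at chr5:115327394-115327418 and the second at chr5:115330562-115330586, and the third spans an exon junction.
Srsf9 site 1: aggacctcgaGGACTtgttctacaa
Srsf9 site 2: gagttccccaGGACTtacggaggtc
Srsf9 site 3: tcttgtttcaGGACTtcctccatca
Methylation was not measured, and a count of letters does not show which sites carry the mark. The log2 fold change was -0.074 for Srsf5 with no GGACT, -0.12 for Srsf7 with 2, -0.28 for Srsf9 with 3 and -0.37 for Srsf1 with 5. Members with 1 site ran from -0.46 (Srsf2) to 0.49 (Srsf4), the whole range of the family. No member passed the test, and a link between sites and fold change was not tested.

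The proteins that act with the SR family were read from the same fit, as lists set out from general knowledge. Among 25 SR-related proteins with arginine-serine domains all were tested, 0 passed by edgeR or DESeq2, 18 had negative and 7 had positive values, and the median log2 fold change was -0.18. Luc7l2, a U1 snRNP-associated factor, had 65.8 and 34.5 CPM in KO replicates 1 and 2, against 125 and 58.9 CPM in WT replicates 1 and 2 (log2 fold change -0.87, SE 0.48). Its exons share 2284 bases with Gm26699 on the opposite strand, and the groups overlapped. Tra2a, an enhancer-binding relative of the SR proteins, had 168 and 94.6 CPM in KO replicates 1 and 2, against 187 and 183 CPM in WT replicates 1 and 2 (-0.50, SE 0.36). Snrnp27, of the tri-snRNP, and Rnps1, of the exon junction complex, differed by -0.46 and -0.39.

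Kinases, import and export partners of the SR proteins had 11 of 12 genes tested (Srpk3 was too low), with 5 positive and 6 negative values and a median of -0.10. Nxt1, the small partner of the mRNA export receptor to which SR adaptors hand their cargo, had 454 and 611 CPM in KO replicates 1 and 2, against 181 and 196 CPM in WT replicates 1 and 2. Both KO embryos were above both WT embryos, 2.83-fold higher on the linear scale (95% interval 1.77 to 4.52, n = 2 per group). The edgeR adjusted p was 0.274, and Nxt1 was the list's only DESeq2 call (adjusted p = 0.00358). Nxf1, the receptor itself, differed by 0.099 (SE 0.30) on the log2 scale. Tnpo3, the importin that carries phosphorylated SR proteins into the nucleus, differed by -0.43 (SE 0.33). The speckle kinases Clk1 and Clk2 differed by -0.44 (SE 0.42) and -0.58 (SE 0.47), with groups that overlapped. Clk3 and Clk4 of the same list differed by -0.14 (SE 0.40) and 0.22 (SE 0.34). Apart from Nxt1 by DESeq2, no tested gene of this list passed either test.

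Of 32 core spliceosome genes 31 were tested, 0 passed by edgeR or DESeq2, and the median was -0.096 with 22 negative and 9 positive values. Sf3b4, a U2 snRNP subunit, had 410 and 742 CPM in KO replicates 1 and 2, against 312 and 403 CPM in WT replicates 1 and 2 (log2 fold change 0.69, SE 0.35). Its exons share 85 bases with Gm17690 on the opposite strand. Plrg1 and Prpf19, of the Prp19 complex, differed by -0.66 (SE 0.37) and -0.72 (SE 0.49), and the groups overlapped for Prpf19. Cdc5l and Crnkl1 of the same complex differed by -0.073 and 0.0028. Snrpd1, an Sm core protein, differed by -0.48 (SE 0.29). Among the other tested Sm genes Snrpd3 and Snrpe differed by -0.26 and -0.18, and Snrpb, Snrpd2 and Snrpg by 0.11, 0.095 and 0.060. The 15 genes of nonsense-mediated decay and the exon junction complex, which decide the fate of poison-exon transcripts, were all tested, with 0 passing by either tool and a median of 0.060. Smg8, a regulator of the SMG1 kinase, had 40.6 and 45.2 CPM in KO replicates 1 and 2, against 25.8 and 26.8 CPM in WT replicates 1 and 2 (0.70, SE 0.35). Smg6, the decay endonuclease, Casc3 and Eif4a3, of the exon junction complex, differed by -0.41, -0.33 and -0.29.

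**Figure D4:**
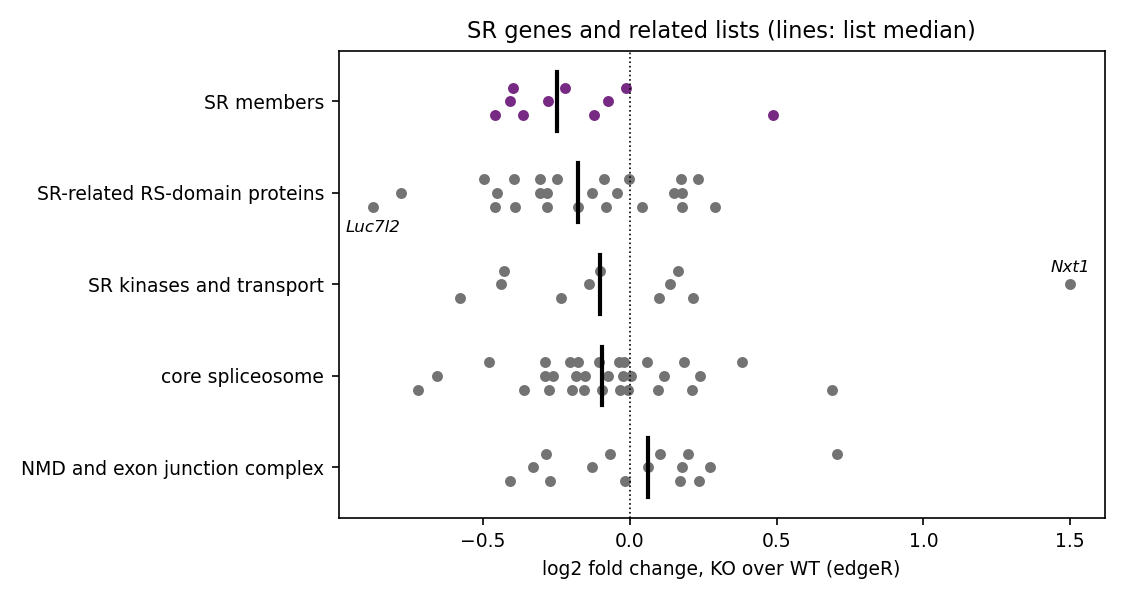
Log2 fold change of KO over WT (edgeR) for each tested gene of the SR family and of the related lists, with a line at each list's median. The SR genes lie between -0.46 and 0.49 around a median of -0.25, and Nxt1, 2.83-fold higher on the linear scale, stands apart at the right.

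Ythdc1, the nuclear m6A reader with SR partners in human cells, had 211 and 134 CPM in KO replicates 1 and 2, against 97.4 and 60.4 CPM in WT replicates 1 and 2. The groups did not overlap, and the log2 fold change of 1.13 (SE 0.39) did not pass by edgeR (adjusted p = 0.524) or DESeq2 (adjusted p = 0.176). Its exons share 631 bases with the noncoding gene Gm43055 on the same strand. Its partners Srsf3 and Srsf10 differed by -0.22 and -0.40 in the same embryos.

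Genes whose profile over the 4 embryos was closest to the mean profile of the SR genes were found by the root mean square distance of centred log2 CPM, among 6005 named protein-coding genes of at least 20 CPM outside the lists. The nearest were Psma1, a proteasome subunit (distance 0.0164), the ribosomal protein genes Rpl7 (0.0208), Rps6 (0.023) and Rpl15 (0.0267), and Tcf25 (0.0266). Psma1 had 636 and 696 CPM in KO replicates 1 and 2, against 701 and 814 CPM in WT replicates 1 and 2. The mean profile was highest in WT replicate 2, but the members did not all share it. Their highest value was in WT replicate 1 for 5 members, in WT replicate 2 for 4 and in KO replicate 2 for 1. With 4 embryos such likeness is a description, and many genes can match a nearly flat profile.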

How the data were processed

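Counts were made by the authors, with 1 library per whole embryo. Smart-Seq v4 amplified the polyadenylated RNA, per the labels' protocols, and the submitters' processing notes name TopHat, Cufflinks and mm10 without version or role. The sources used here do not name the counting program, its strand setting or its annotation. The deposited values are whole-number read counts per gene with no normalisation. Of 47885 rows 46574 were matched by Ensembl identifier to GENCODE M21, which supplied symbols, exons and transcripts. A further 816 rows had no Ensembl identifier and held 0.171% of counts. They stayed in library sizes and tests.

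KO was compared with WT over all genes with edgeR (version 4.0.16, R 4.3.3), after filterByExpr with a minimum count of 10 and a total of at least 15. It used TMM scaling, robust dispersion estimates, the quasi-likelihood F test and Benjamini-Hochberg adjustment over 15563 genes. SE is the absolute log2 fold change over the square root of F, and 95% intervals use the t distribution with the fit's degrees of freedom. Log2 CPM of single embryos used a prior count of 2. DESeq2 (1.42.0), limma-voom (3.58.1), other scalings, filters, omitted libraries and a replicate block were alternatives. The fits were tested on simulated data. Near-identical copies were sought with BLAST (95% identity over 150 bases). The members and lists were chosen with earlier results of these data known. Besides the members, up to 4 genes of each process list with the smallest unadjusted p were named. Nxf1, Clk3, Clk4, Cdc5l, Crnkl1, Snrpb, Snrpd2, Snrpd3, Snrpe and Snrpg were added after their values were seen. The labels give no litter, so the p-values reflect variation among single embryos of unknown litters, and amplified reads are not independent molecules.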

Additional observations from a re-analysis of the deposited data

How the results depend on the processing

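None of the 10 SR genes passed the threshold under any of the 11 alternatives. With limma-voom, RLE scaling, library totals and the filter of 50 counts in 2 libraries no gene of any kind passed, so the lack of calls there is not particular to the SR genes. Of 110 refitted values of single members, 103 kept their sign and 7 changed it. Those were Srsf2 (0.15), Srsf3 (0.062) and Srsf6 (0.096) without WT replicate 2, Srsf5 (0.011), Srsf6 (0.14) and Srsf9 (0.12) without KO replicate 1, and Srsf6 (0.016) with library totals. With 1 library left out, the lowest and highest values were -0.87 and 0.15 for Srsf2, -0.43 and 0.062 for Srsf3, -0.082 and 0.011 for Srsf5, -0.085 and 0.14 for Srsf6, -0.67 and 0.12 for Srsf9, and -0.27 and -0.044 for the members' median. The others kept their sign but also moved, with lowest and highest values of -0.43 and -0.27 for Srsf1, 0.15 and 0.95 for Srsf4, -0.13 and -0.071 for Srsf7, -0.55 and -0.19 for Srsf10 and -0.53 and -0.26 for Srsf11. The lone library of a group is then assumed to vary like the others. The count of 5 members with KO lower and no overlap was 2 with library totals, an alternative added after seeing the data.

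Over all genes the count of calls was 0 in each direction by edgeR, limma-voom, RLE scaling, library totals and the filter of 50 counts in 2 libraries. It was 150 higher and 90 lower with DESeq2, 157 and 101 with no low-count filter, and 14 to 133 higher and 1 to 209 lower with 1 library left out. Nxt1 kept a positive value (1.28 to 1.78) under the 11 alternatives and also passed with no low-count filter (adjusted p = 0.00441) and without KO replicate 1 (adjusted p = 0.0333). The replicate block gave 52 higher and 19 lower, with 0 SR genes among them and a members' median of -0.26, and Nxt1 passed (adjusted p = 0.0337). The labels give replicate numbers but no shared litter or day, and the WT and KO replicate differences correlated at 0.329 across genes. The causes were not tested. Depth limits Srsf4 most, at 94 to 359 counts.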

Other observations

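Srsf5, Srsf6 and Srsf7 varied little over the 4 embryos. Among 2126 genes with a mean of at least 100 CPM, the range of log2 CPM over the 4 embryos had a median of 0.70. Srsf5 had the 3rd smallest range (0.095), Srsf7 ranked 48 (0.18) and Srsf6 ranked 55 (0.19). Srsf2 (1.03) and Srsf9 (0.84) were above the median range, and Srsf1, Srsf3, Srsf10 and Srsf11 (0.53 to 0.69) were below it. The ranks depended on the scaling. With library totals, tried after seeing the data, the median range was 0.66, and Srsf6 ranked 2 (0.041), Srsf5 80 (0.21) and Srsf7 190 (0.30), while Srsf10 (0.77) and Srsf11 (0.80) were above the median.

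Close copies of SR genes in the genome held few counts. Srsf3 has copies in Gm9761 (99.6% identity over 492 bases), with 9 and 9 counts in KO and 9 and 6 in WT, and in Gm12355 (98.3% over 1298 bases), with 5 and 9 counts in KO and 3 and 11 in WT. The copies of Srsf5 and Srsf10 that are in the table held at most 2 counts in any embryo. The sources used here do not say how reads matching both a gene and its copy were assigned.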
